A study of Mus musculus with 15 samples.

Results

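The PGC-1 coactivator family has 3 genes in the mouse, Ppargc1a (PGC-1alpha), Ppargc1b (PGC-1beta) and Pprc1 (PRC), and all 3 were measured. They were chosen by name: a member is a transcript cluster (the array's set of probes for a gene or locus) whose single platform symbol is Ppargc1a, Ppargc1b or Pprc1. Each gene had 1 such cluster, so 3 clusters of 23332 are described. Mouse primary myoblasts, the dividing precursors of muscle fibres, were differentiated into multinucleate myotubes and given adenovirus at 48 h of differentiation, at an MOI (infectious particles per cell) of 100. The control virus carried GFP alone. The other 4 carried GFP together with a mouse PGC-1alpha isoform, named PGC-1a1 to PGC-1a4 and here used as group names, the GFP and the isoform each having a promoter of its own. All 5 groups, the control included, therefore share the virus, the dose and GFP. The medium was changed 12 h after transduction and RNA was taken at about 60 h, and each group had 3 arrays. The labels do not say whether the 3 were separate cultures or animals, so the spread behind each p-value is that of these samples and may be technical. For the PGC-1a4 arrays the titles say PGC-1a4 while the source name says isoform 1, and the titles were followed.

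PGC-1 proteins do not bind DNA by themselves. They dock on transcription factors, among them nuclear receptors, and bring in acetyltransferases and the Mediator complex, and they are best known for raising genes of mitochondrial respiration and fatty acid oxidation. In muscle, Ppargc1a is induced by contraction, cold and fasting through calcium and cAMP signalling. PGC-1a1 is the full-length protein, while PGC-1a2, PGC-1a3 and PGC-1a4 come from another promoter of the same gene and from other splice choices, and are shorter. PGC-1beta is known for keeping basal mitochondrial gene expression, and PRC for a growth-linked response: it is a serum-inducible coactivator of NRF1 target genes.

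Markers of myotubes were high, as were those of myoblasts other than Pax3 and Vcam1, which averaged percentiles 30.8 and 53.0 on an array. All 15 measured markers of myotubes were above the middle of the array's signals in every group. Their summed signal ranged from 14.96 to 15.19 log2 over the 15 arrays. By group it was 15.117 to 15.185 in GFP, 14.956 to 14.995 in PGC-1a1 and 14.976 to 14.993 in PGC-1a3. It was 15.034 to 15.135 in PGC-1a2 and 15.032 to 15.116 in PGC-1a4. Myog, Myod1, Myf6, Ckm, Tnnc2, Tnni2, Ryr1, Casq1 and Mb passed the F-test over the groups. Des, Acta1, Actn2, Tnnt3, Mylpf and Chrna1 did not. Of 6 myoblast markers, 4 were above the middle in GFP and 5 in each isoform group. Their summed signal was 12.41 to 12.49 in GFP, 12.37 to 12.39 in PGC-1a1, 12.48 to 12.53 in PGC-1a2, 12.21 to 12.24 in PGC-1a3 and 12.53 to 12.60 in PGC-1a4, and Pax7, Myf5, Vcam1 and Ncam1 passed the F-test over the groups. Ncam1 had the highest mean signal of the 6 (11.79 log2) and so the most weight in the myoblast sum. The part of a shift between these cell states in the results was not tested. Of 8 endothelial markers 0 were above the middle, and of 9 fibroblast markers 3 were. GFP replicate 2 stood apart, with correlations across clusters of 0.982 and 0.983 with the other GFP arrays against 0.991 between those. Values of the family members that rest on it are given without it too. The differences of single genes on the lists below are given with all 15 arrays only.

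The promoters of the endogenous genes are shown because Ppargc1a has 2 sources of RNA in these cells, its own gene and the virus, which the cluster's single value does not tell apart. RefSeq gave a promoter window for 2 of the 3 members. The 250 bases before the annotated start are printed, Ppargc1a from chr5:51567726-51567975 (minus strand) and Pprc1 from chr19:46056289-46056538 (plus strand), both in GRCm38.p6. Capitals mark the core of the cAMP response element, TGACG, on either strand.
Ppargc1a: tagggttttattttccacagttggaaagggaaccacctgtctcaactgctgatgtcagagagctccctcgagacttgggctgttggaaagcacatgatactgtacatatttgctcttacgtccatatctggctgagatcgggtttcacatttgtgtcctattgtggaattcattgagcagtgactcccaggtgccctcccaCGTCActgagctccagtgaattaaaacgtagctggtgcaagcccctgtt
Pprc1: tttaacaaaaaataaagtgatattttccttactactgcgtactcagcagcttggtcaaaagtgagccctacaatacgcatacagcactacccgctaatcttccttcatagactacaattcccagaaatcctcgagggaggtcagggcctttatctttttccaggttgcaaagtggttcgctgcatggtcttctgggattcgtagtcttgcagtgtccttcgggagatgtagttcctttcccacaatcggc
The Ppargc1a window held this core on the strand opposite to the printed one, at positions -49 to -45 from the start. Of 32851 mouse promoter windows of the same length, 17.8% held it on either strand. The same search for the whole element TGACGTCA (1.55% of windows), the estrogen-related receptor element TCAAGGTCA (0.387%), the MEF2 element (3.2%), the NRF1 element (3.74%) and the ETS element CCGGAAG (6.91%), all on both strands, gave 0 matches in either window. The core overlaps the whole element where both occur. These are matches of letters in a short window, and the distal start of Ppargc1a lies outside it.

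Ppargc1a encodes the introduced protein, so its signal was read as a check of the labels. A signal near that of GFP does not show that an isoform was absent, because an isoform can lack exons that some probes read. In GFP arrays it was 8.88, 8.12 and 8.58 log2 for replicates 1, 2 and 3, with replicate 2 the lowest of all 15 arrays. In PGC-1a1 arrays it was 12.55, 12.60 and 12.67, and in PGC-1a4 arrays 10.61, 10.43 and 10.34. Both groups lay clear of GFP and of each other. Over all clusters, 22.3% did not overlap in PGC-1a1 against GFP, 26.2% in PGC-1a4 against GFP and 27.5% in PGC-1a4 against PGC-1a1. PGC-1a2 arrays read 8.90, 8.88 and 8.85, and PGC-1a3 arrays 9.15, 8.80 and 8.88. These overlapped with GFP, whose highest array was 8.88. The difference from GFP was 4.08 ± 0.16 in PGC-1a1 (log2 ± SE, 16.9-fold, adjusted p = 6.2e-08) and 1.93 ± 0.16 in PGC-1a4 (3.82-fold, adjusted p = 8.1e-06), by limma with Benjamini-Hochberg adjustment over all clusters. It was 0.35 in PGC-1a2 (95% interval 0.01 to 0.69, adjusted p = 0.22) and 0.42 in PGC-1a3 (0.08 to 0.76, adjusted p = 0.14), and neither passed the threshold of 0.05. Both passed without GFP replicate 1, at 0.53 (adjusted p = 0.043) and 0.59 (adjusted p = 0.03). Without GFP replicate 2 they were 0.14 and 0.21 and did not pass. Added Ppargc1a signal was thus seen in the arrays titled PGC-1a1 and PGC-1a4, and was not called in those titled PGC-1a2 and PGC-1a3. The signal does not tell which isoform was introduced, so it does not settle the conflict in the PGC-1a4 labels.

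The order of Ppargc1a signal was PGC-1a1, PGC-1a4, PGC-1a3, PGC-1a2, GFP. PGC-1a4 minus PGC-1a1 was -2.15 log2 (SE 0.16, adjusted p = 2.4e-05), and PGC-1a4 arrays were higher than PGC-1a3 arrays by 1.52 (adjusted p = 2.2e-05) and than PGC-1a2 arrays by 1.59 (adjusted p = 1.1e-05). PGC-1a3 and PGC-1a2 differed by 0.07, with a 95% interval from -0.27 to 0.41 (adjusted p = 0.88). Ppargc1a was called in 7 of the 10 comparisons between groups, 2 of the 4 against GFP and 5 of the 6 between isoforms. Between PGC-1a3 and PGC-1a2, where it was not called, 9.27% of all clusters were, and over the 10 comparisons that share ran from 6.84% to 25.2%. The probes of the cluster are pooled into 1 value and the sources used here do not give their place along the gene. An isoform can lack exons that some probes read, so the order is an order of signal and not of dose.

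**Figure D1:**
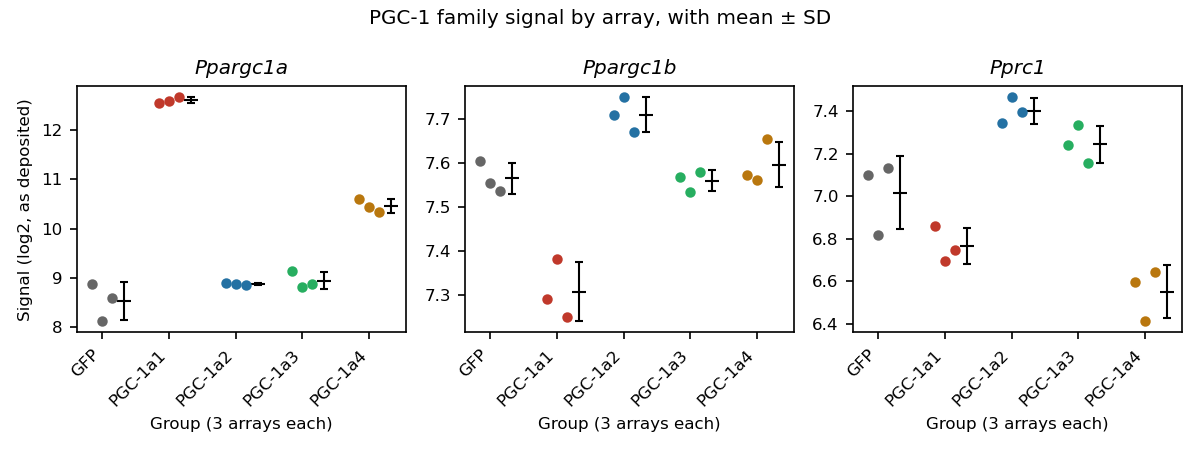
Signal of the 3 PGC-1 family genes on each array, in log2 as deposited, with 1 point per array in replicate order and the mean ± SD of the 3 arrays beside it (the vertical axes differ between genes and do not start at 0). Ppargc1a is high in PGC-1a1 (12.55 to 12.67) and PGC-1a4 (10.34 to 10.61), Ppargc1b is lowest in PGC-1a1, and Pprc1 is highest in PGC-1a2 and lowest in PGC-1a4.

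Pprc1 moved in opposite directions under different isoforms. It encodes PRC, the family member tied to cell growth, and it rose in PGC-1a2 and fell in PGC-1a4. In GFP arrays its signal was 7.10, 6.82 and 7.13 log2. In PGC-1a2 arrays it was 7.34, 7.47 and 7.40, and in PGC-1a4 arrays 6.60, 6.41 and 6.64. All 3 PGC-1a2 arrays were above every GFP array, and all 3 PGC-1a4 arrays were below every GFP array. Its signal in PGC-1a3 arrays was 7.24, 7.33 and 7.16, just above GFP, and in PGC-1a1 arrays 6.86, 6.69 and 6.75, where the highest array passed the lowest GFP array. The groups did not overlap with GFP in 3 of 4 comparisons, which also held for 24.7% of all clusters in PGC-1a2, 23.4% in PGC-1a3 and 26.2% in PGC-1a4 (22.3% in PGC-1a1).

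Against GFP, Pprc1 differed by 0.39 ± 0.09 log2 in PGC-1a2 (SE, 1.31-fold, adjusted p = 0.024) and by -0.47 ± 0.09 in PGC-1a4 (1.38-fold lower, adjusted p = 0.0055). Of all clusters 9.33% were called in PGC-1a2 against GFP and 14.3% in PGC-1a4. The PGC-1a2 call rested on GFP replicate 2 among others: without that array the rise was 0.29 (adjusted p = 0.065), without PGC-1a2 replicate 2 it was 0.35 (adjusted p = 0.096) and without PGC-1a2 replicate 3 it was 0.39 (adjusted p = 0.071). With each array centred on its median the rise was 0.41 (adjusted p = 0.062). The fall in PGC-1a4 passed without each of the 15 arrays in turn, at -0.56 to -0.40, and did not pass when the fit held only those 2 groups (adjusted p = 0.096). The value in PGC-1a1 was -0.25 (95% interval -0.46 to -0.04, adjusted p = 0.16), and without GFP replicate 2 it was -0.35 and passed (adjusted p = 0.036). In PGC-1a3 it was 0.23 (0.02 to 0.43, adjusted p = 0.19).

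Pprc1 was called in 4 of the 6 comparisons between isoforms. PGC-1a4 minus PGC-1a2 was -0.85 log2 (SE 0.09, 1.80-fold lower, adjusted p = 2.9e-05), a difference at the percentile 2.58 of all clusters in that comparison, in which 25.2% were called. PGC-1a4 minus PGC-1a3 was -0.69 (adjusted p = 0.00018; 23% of clusters called). PGC-1a2 exceeded PGC-1a1 by 0.64 (adjusted p = 0.00048; 19.2% called) and PGC-1a3 exceeded PGC-1a1 by 0.48 (adjusted p = 0.0052; 14% called). These 4 differences use no GFP array, although the pooled variance behind their p-values does. They passed under all 24 alternative settings, among them the fit of only the groups compared. PGC-1a4 and PGC-1a1 differed by -0.21 (95% interval -0.42 to -0.01, adjusted p = 0.22), and PGC-1a3 and PGC-1a2 by -0.16 (-0.37 to 0.05, adjusted p = 0.40). In the order PGC-1a2, PGC-1a3, GFP, PGC-1a1, PGC-1a4 no 2 neighbours passed the test. The limma F-test over the 5 groups gave Pprc1 an adjusted p of 0.00012, and it called 31.3% of all clusters. Between isoforms the arrays of Pprc1 did not overlap in any of the 6 comparisons. The same held for 36.1% of all clusters in PGC-1a2 against PGC-1a1, 31.2% in PGC-1a3 against PGC-1a1, 27.5% in PGC-1a4 against PGC-1a1, 28.4% in PGC-1a3 against PGC-1a2, 39.1% in PGC-1a4 against PGC-1a2 and 35.6% in PGC-1a4 against PGC-1a3.

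Markers of macrophages were also highest in PGC-1a3 and PGC-1a2 and lowest in PGC-1a4. The summed signal of the 6 measured markers of 7 was 7.30 to 7.50 log2 in PGC-1a2, 7.51 to 7.62 in PGC-1a3, 7.22 to 7.34 in GFP, 7.13 to 7.24 in PGC-1a1 and 6.95 to 7.07 in PGC-1a4. Of the 6, Cd68, Itgam and Mrc1 passed the F-test (adjusted p = 0.0032, 0.00061 and 2.5e-05), and averaged percentiles 53.5, 31.1 and 42.7 of the signals on an array. Adgre1, Csf1r and Ptprc did not pass (adjusted p = 0.65, 0.94 and 0.25), and averaged percentiles 16.5, 33.7 and 18.6. The part of such cells in the Pprc1 values was not tested. In RNA from whole cultures, fewer cells of a type and less RNA per cell cannot be told apart.

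Ppargc1b, the gene of PGC-1beta, was lowest in the PGC-1a1 arrays. They read 7.29, 7.38 and 7.25 log2, below every array of the other 4 groups. GFP arrays read 7.60, 7.55 and 7.54. PGC-1a2 arrays read 7.71, 7.75 and 7.67 and were above each of the other 12 arrays. Groups without overlap were common over all clusters. For PGC-1a1 the share was 22.3% against GFP, 36.1% against PGC-1a2, 31.2% against PGC-1a3 and 27.5% against PGC-1a4. For PGC-1a2 it was 24.7% against GFP, 28.4% against PGC-1a3 and 39.1% against PGC-1a4. The share of clusters with a group clear of all other groups at once was not counted. PGC-1a3 arrays (7.57, 7.53 and 7.58) and PGC-1a4 arrays (7.57, 7.56 and 7.66) overlapped with GFP. The spread within groups was small, from 0.02 to 0.07 log2 (SD, n = 3). The range over all 15 arrays was 0.50 log2, against 1.05 for Pprc1 and 4.56 for Ppargc1a.

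Ppargc1b fell by 0.26 ± 0.06 log2 in PGC-1a1 against GFP (SE, 1.20-fold, adjusted p = 0.015), where 6.84% of clusters were called. The adjusted p was 0.15 with each array centred on its median, 0.055 without GFP replicate 1, and 0.058 and 0.075 when PGC-1a1 replicate 1 or replicate 3 was left out. Against the other isoforms PGC-1a1 was the lower group, with PGC-1a2 higher by 0.40 (adjusted p = 0.00028), PGC-1a4 by 0.29 (adjusted p = 0.0068; 9.08% of clusters called) and PGC-1a3 by 0.25 (adjusted p = 0.0097). The difference from PGC-1a3 did not pass without PGC-1a1 replicate 3 (adjusted p = 0.051) or with median centring (adjusted p = 0.068). The value in PGC-1a2 against GFP was 0.14 (95% interval 0.02 to 0.27, adjusted p = 0.14). It was -0.00 in PGC-1a3 (-0.13 to 0.12, adjusted p = 0.97; 7.99% called) and 0.03 in PGC-1a4 (-0.09 to 0.15, adjusted p = 0.84). In the order PGC-1a2, PGC-1a4, GFP, PGC-1a3, PGC-1a1 the last step is the 1 between neighbours that passed. The F-test gave an adjusted p of 0.0015.

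**Figure D2:**
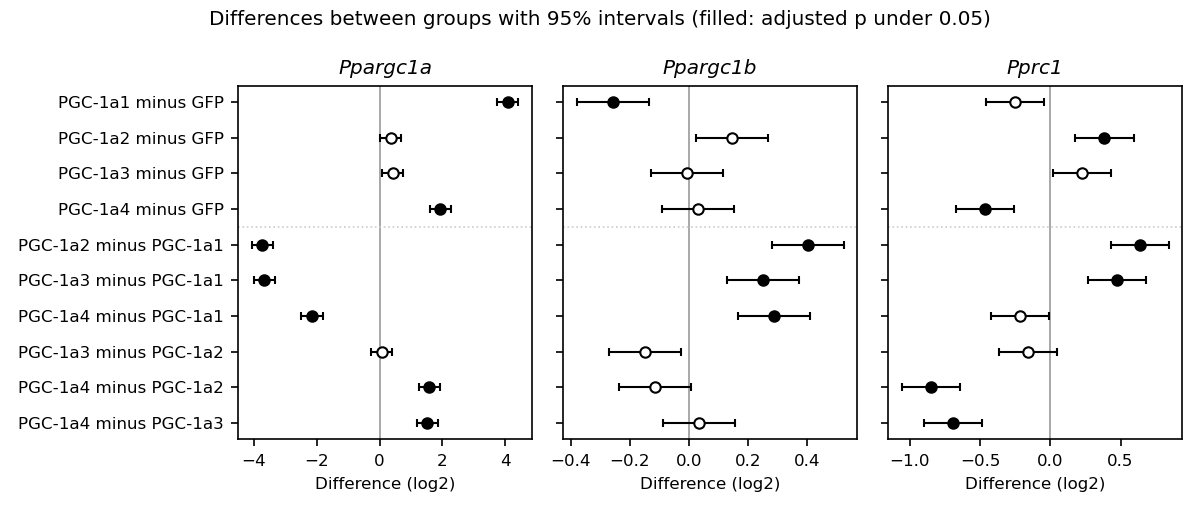
Differences of group means for each PGC-1 family gene in the 10 comparisons, in log2 with 95% intervals from the fit of all 15 arrays. Filled points had an adjusted p under 0.05: 7 for Ppargc1a, 4 for Ppargc1b and 6 for Pprc1, and the scales of the 3 panels differ.

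The 3 genes therefore had 3 different orders of group means, in which most steps between neighbours did not pass. The differences between genes in a group were not tested. In PGC-1a4, Ppargc1a was 1.93 above GFP, Pprc1 was at -0.47 and Ppargc1b at 0.03. In PGC-1a2, Ppargc1a (0.35) and Ppargc1b (0.14) did not pass while Pprc1 (0.39) did. A pass beside a miss does not show that the genes differed. The 4 comparisons with GFP share the same 3 control arrays.

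Genes whose signal followed each member most closely over the 15 arrays were sought among 3117 named clusters (3118 for Ppargc1b) above the median signal with group means at least 0.5 log2 apart. Likeness is Pearson's r over the 15 arrays, which fall into 5 groups and share any factor of an array, so it is a description. For Ppargc1a the closest were Elovl7, a fatty acid elongase gene (0.99), Cs, citrate synthase (0.98), Dlat, the acetyltransferase subunit of pyruvate dehydrogenase (0.98), Slc25a39, a mitochondrial carrier (0.98), and Ndufa8 of respiratory complex I (0.98). Elovl7 averaged 8.81 log2 in PGC-1a1 and 7.25 in PGC-1a4 against 4.92 in GFP, 5.12 in PGC-1a2 and 5.61 in PGC-1a3. Its GFP and PGC-1a2 levels were below the lowest array median of 5.48, so it entered the search through the groups where it was high. Cs was 0.55 above GFP in PGC-1a1 and 0.31 in PGC-1a4. The most opposite were Map3k7cl (-0.94), S100a4 (-0.91) and Atp2a1, the calcium pump of fast muscle (-0.90).

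For Pprc1 the closest were Mmd, Fam171b, Sting1, Dicer1 and Sh3bp2, all at 0.98. Sting1 encodes a sensor of cytosolic DNA signalling and Dicer1 the enzyme that cuts miRNA precursors. Sting1 was 0.87 above GFP in PGC-1a2 and at -0.68 from it in PGC-1a4, and Dicer1 at 0.32 and -0.41. With each group's mean taken away, r with Pprc1 was 0.94 for Fam171b, 0.82 for Sting1, 0.81 for Mmd, 0.74 for Sh3bp2 and 0.67 for Dicer1. It ran from 0.11 to 0.76 for the 5 genes closest to Ppargc1a, and from 0.13 to 0.53 for those closest to Ppargc1b. All were picked by their correlation over these same arrays. The most opposite to Pprc1 were Vegfa, the angiogenic growth factor gene (-0.96), Tfeb, a regulator of lysosome genes (-0.96), and Cdv3 (-0.95). Vegfa was at 0.51 from GFP in PGC-1a4 and -0.25 in PGC-1a2. Between 2 and 4 of the 5 closest genes stayed among the closest when 1 array was left out.

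For Ppargc1b the closest were Runx1, a transcription factor gene (0.93), Mustn1 (0.92), Reep2 (0.91), Trrap, a scaffold of acetyltransferase complexes (0.91), and Foxj3 (0.91). Trrap was at -0.41 from GFP in PGC-1a1 and 0.25 in PGC-1a2. The most opposite were Ralb, a small GTPase gene (-0.96), Taco1, needed to translate a mitochondrial subunit of cytochrome oxidase (-0.94), and Timmdc1, a complex I assembly factor (-0.94). Taco1 was at 0.56 from GFP in PGC-1a1 and -0.42 in PGC-1a2.

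**Figure D3:**
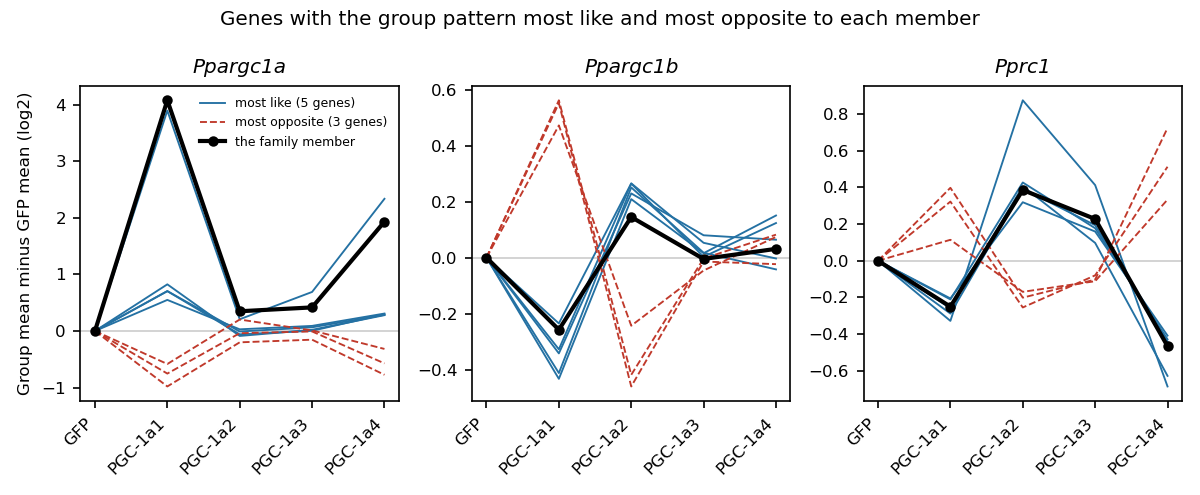
Group means minus the GFP mean, in log2, for each family member (black), the 5 genes most like it (blue) and the 3 most opposite (red, dashed) by Pearson's r over 15 arrays. Lines only join the values of a gene, and the vertical scales differ between panels: the 5 genes like Pprc1 are above GFP in PGC-1a2 and below it in PGC-1a4.

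The genes around the family were described through 5 lists with 109 measured genes, 4 of them on 2 lists. The lists were chosen with earlier results of these data known, so their counts are descriptions. Upstream regulators of Ppargc1a were mostly not called. Of 26 measured, 2 rose and 2 fell in PGC-1a1, 3 and 2 in PGC-1a2, 3 and 4 in PGC-1a3, and 4 and 1 in PGC-1a4. Over all clusters 4.44% rose and 2.4% fell in PGC-1a1, 4.56% and 4.77% in PGC-1a2, 5.02% and 2.97% in PGC-1a3, and 7.05% and 7.22% in PGC-1a4. Camk2b, a calcium-calmodulin kinase gene, was higher in PGC-1a2 (0.54 ± 0.07, adjusted p = 0.00056) and PGC-1a3 (0.36 ± 0.07) and lower in PGC-1a4 (-0.37 ± 0.07, adjusted p = 0.0028). Prkaa2, a catalytic subunit of AMP-activated kinase, rose by 0.37 ± 0.06 in PGC-1a4 (adjusted p = 0.0021), and Tfeb by 0.72 ± 0.10 (adjusted p = 0.00059). In PGC-1a1 they rose by 0.30 (adjusted p = 0.014) and 0.40 (adjusted p = 0.041). With each array left out in turn, these PGC-1a1 rises passed in 12 of 15 fits for Prkaa2 and in 6 for Tfeb. Crtc2, a coactivator of CREB, rose in PGC-1a2 (0.37 ± 0.07) and PGC-1a3 (0.36 ± 0.07). The median difference lay between -0.08 and 0.08 in the 4 isoforms, against -0.03 to -0.02 over all clusters. The 4 calls in PGC-1a1 were 1 without GFP replicate 3 or PGC-1a1 replicate 3, and 2 when replicate 1 or 2 of PGC-1a1 was left out. The 7 in PGC-1a3 were 1 without PGC-1a3 replicate 1, and 4 without GFP replicate 3 or PGC-1a3 replicate 2 or 3.

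Among the transcription factors on which PGC-1 proteins dock, the called genes included all 3 estrogen-related receptors, in different isoforms. Of 27 measured, 1 rose and 1 fell in PGC-1a1, 3 and 3 in PGC-1a2, 2 and 3 in PGC-1a3, and 4 and 3 in PGC-1a4. Over all clusters 6.84% were called either way in PGC-1a1, 9.33% in PGC-1a2, 7.99% in PGC-1a3 and 14.3% in PGC-1a4. Esrra (ERRalpha), a main partner in mitochondrial gene control, rose in PGC-1a1 (0.97 ± 0.08, adjusted p = 1.9e-05) and PGC-1a4 (1.11 ± 0.08, adjusted p = 3.3e-06). It fell in PGC-1a2 (-0.49 ± 0.08, adjusted p = 0.0026) and PGC-1a3 (-0.31 ± 0.08, adjusted p = 0.033). Esrrg fell by 0.92 ± 0.13 in PGC-1a2 (adjusted p = 0.0013) and Esrrb rose by 0.77 ± 0.11 in PGC-1a4 (adjusted p = 0.00052). The thyroid hormone receptor gene Thra rose in PGC-1a4 (0.59 ± 0.09) and Pparg fell there (-0.64 ± 0.08, adjusted p = 0.00014). Pparg also fell by 0.28 in PGC-1a1 (adjusted p = 0.044) and 0.34 in PGC-1a3 (adjusted p = 0.018). With each array left out in turn, its fall passed in 4 of 15 fits in PGC-1a1, 12 in PGC-1a3 and 15 in PGC-1a4. In PGC-1a2 the retinoid receptor gene Rxrg (0.55 ± 0.11) and Sox9 (0.44 ± 0.07) rose. The 5 calls in PGC-1a3 were 1 without PGC-1a3 replicate 1, and 3 without GFP replicate 1 or 3 or PGC-1a3 replicate 2. The 2 in PGC-1a1 were 1 without any GFP or PGC-1a2 array, PGC-1a1 replicate 2 or 3, PGC-1a3 replicate 1, or PGC-1a4 replicate 1 or 2. The median difference of this list was -0.01 in PGC-1a1, -0.05 in PGC-1a2, -0.00 in PGC-1a3 and -0.03 in PGC-1a4.

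The machinery that PGC-1 proteins recruit includes acetyltransferases, Mediator subunits and elongation factors. Of 15 measured genes 1 rose and 0 fell in PGC-1a1, 4 and 0 in PGC-1a2, 3 and 0 in PGC-1a3, and 6 and 1 in PGC-1a4. The shares of all clusters called either way were 6.84%, 9.33%, 7.99% and 14.3% in PGC-1a1 to PGC-1a4. Ep300, the p300 acetyltransferase gene, rose by 0.49 ± 0.07 in PGC-1a2 (adjusted p = 0.0014). Ncoa1 (SRC-1), which binds PGC-1alpha, rose by 0.26 ± 0.06 in PGC-1a1, 0.34 ± 0.06 in PGC-1a2 and 0.44 ± 0.06 in PGC-1a4 (adjusted p = 0.00027). Hcfc1, a partner of PGC-1beta and PRC, rose by 0.40 ± 0.06 in PGC-1a3 (adjusted p = 0.0026), 0.28 ± 0.06 in PGC-1a2 and 0.26 ± 0.06 in PGC-1a4. In PGC-1a4, Lpin1, which joins PGC-1alpha and PPARalpha, rose by 0.61 ± 0.11, and Cdk9, a kinase of transcript elongation, fell by 0.47 ± 0.06 (adjusted p = 0.00034). The list's medians were -0.00, 0.08, 0.11 and 0.06 in PGC-1a1 to PGC-1a4. The 7 calls in PGC-1a4 were 3 without PGC-1a4 replicate 1 and 4 without GFP replicate 1, the 4 in PGC-1a2 were 2 without PGC-1a2 replicate 2, and the call in PGC-1a1 was lost without PGC-1a1 replicate 2 or 3 and joined by another without PGC-1a1 replicate 1 or PGC-1a4 replicate 1.

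Proteins that repress or modify PGC-1 proteins form a mixed list. Of 13 measured, 1 rose and 0 fell in PGC-1a1, 4 and 0 in both PGC-1a2 and PGC-1a3, and 1 and 2 in PGC-1a4. The shares of all clusters called either way were 6.84%, 9.33%, 7.99% and 14.3% in PGC-1a1 to PGC-1a4. Sirt1, a deacetylase that activates PGC-1alpha, rose by 0.37 ± 0.08 in PGC-1a2 (adjusted p = 0.013) and fell by 0.64 ± 0.08 in PGC-1a4 (adjusted p = 0.00023). It also rose by 0.35 in PGC-1a3 (adjusted p = 0.021). Mybbp1a, which represses PGC-1alpha, rose by 0.32 ± 0.07 in PGC-1a2 (adjusted p = 0.018) and 0.34 ± 0.07 in PGC-1a3 (adjusted p = 0.016), and fell by 0.50 ± 0.07 in PGC-1a4 (adjusted p = 0.00077). Nrip1 (RIP140), a corepressor that opposes PGC-1alpha, rose by 0.40 ± 0.09 in PGC-1a2, and Senp1, a SUMO protease gene, by 0.46 ± 0.08 there and 0.33 ± 0.08 in PGC-1a3. With each array left out in turn, the PGC-1a3 rises passed in 12 of 15 fits for Sirt1, 13 for Mybbp1a and 11 for Senp1. The Mybbp1a rise in PGC-1a2 passed in 11 of 15. Sirt3, a mitochondrial deacetylase and no inhibitor, is the riser in PGC-1a1 (0.86 ± 0.08, adjusted p = 7.1e-05) and PGC-1a4 (0.71 ± 0.08, adjusted p = 0.00015). The medians were 0.01, 0.09, 0.06 and -0.00 in PGC-1a1 to PGC-1a4. In PGC-1a3 the 4 calls were 0 without PGC-1a3 replicate 1 or 2 and 1 without GFP replicate 2. In PGC-1a4 the 3 calls were 5 without GFP replicate 1, and in PGC-1a1 the call was 2 without GFP replicate 2 or PGC-1a2 replicate 1.

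The last list holds 32 measured genes taken here as PGC-1 targets, a choice made with earlier results of these data known. Of these, 21 rose and 0 fell in PGC-1a1, and 14 rose and 1, the catalase gene Cat (-0.40), fell in PGC-1a4. In PGC-1a2, 2 rose and 9 fell, and in PGC-1a3, 0 rose and 6 fell. Over all clusters 4.44% rose and 2.4% fell in PGC-1a1, and 7.05% and 7.22% in PGC-1a4. The shares were 4.56% and 4.77% in PGC-1a2, and 5.02% and 2.97% in PGC-1a3. The median was 0.40 in PGC-1a1, 0.24 in PGC-1a4, -0.15 in PGC-1a2 and -0.08 in PGC-1a3. Idh3a of the TCA cycle was 0.99 ± 0.07 above GFP in both PGC-1a1 and PGC-1a4 and at -0.53 ± 0.07 in PGC-1a2 (adjusted p = 0.00084) and -0.34 ± 0.07 in PGC-1a3 (adjusted p = 0.013). Mfn1, a mitochondrial fusion gene, rose by 1.12 ± 0.09 in PGC-1a1 (adjusted p = 1.9e-05) and 0.93 ± 0.09 in PGC-1a4. Acadm, a fatty acid dehydrogenase gene, rose by 0.64 ± 0.06 in PGC-1a1 and 0.43 ± 0.06 in PGC-1a4 and fell by 0.25 ± 0.06 in PGC-1a2. Pdk4, which restrains pyruvate oxidation, rose by 1.66 ± 0.13 in PGC-1a4 (adjusted p = 6.7e-06), by 0.71 ± 0.13 in PGC-1a2 (adjusted p = 0.005) and by 0.51 ± 0.13 in PGC-1a1 (adjusted p = 0.036), and fell by 0.58 ± 0.13 in PGC-1a3 (adjusted p = 0.018). The transferrin receptor gene Tfrc rose by 0.84 ± 0.08 in PGC-1a4 and 0.69 ± 0.08 in PGC-1a1, and fell by 0.52 ± 0.08 in PGC-1a2 and 0.30 ± 0.08 in PGC-1a3. The cytochrome oxidase gene Cox6a2 fell by 0.40 ± 0.08 in PGC-1a3 and 0.37 ± 0.08 in PGC-1a2, and rose by 0.29 ± 0.08 in PGC-1a1. The 6 calls in PGC-1a3 were 2 without GFP replicate 3 and 3 without GFP replicate 1 or any PGC-1a3 array, and the 11 in PGC-1a2 were 7 without GFP replicate 3.

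**Figure D4:**
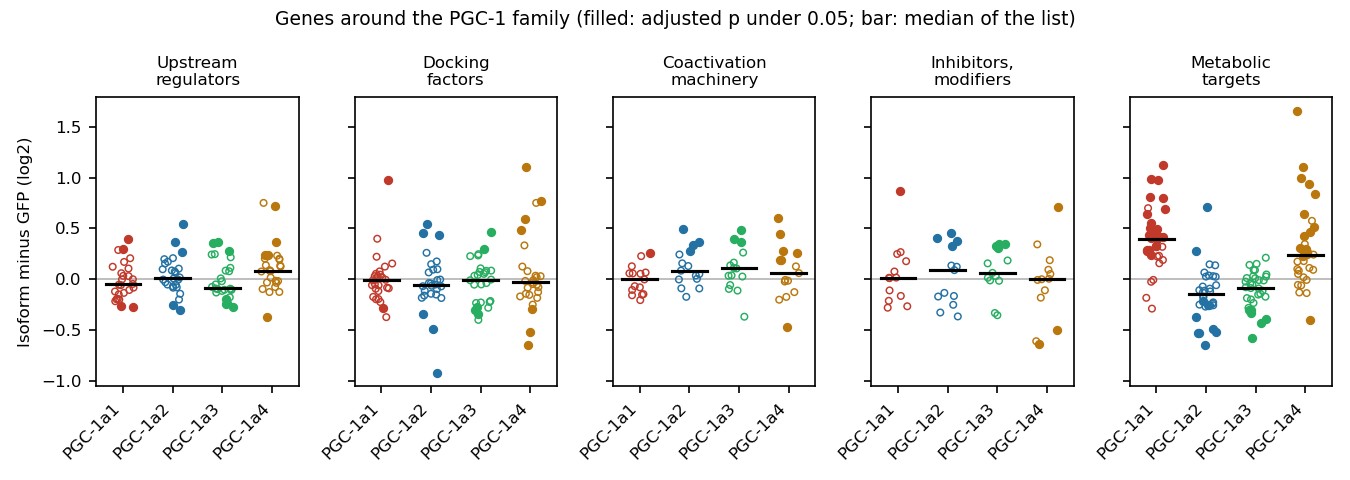
Difference from GFP, in log2, of each measured gene on 5 lists around the PGC-1 family, by isoform, with the median of the list as a bar. Filled points had an adjusted p under 0.05: in PGC-1a1 21 of 32 metabolic targets are filled above 0, against 2 of 26 upstream regulators. Of all clusters, 4.44% were called higher in PGC-1a1.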

How the data were processed

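The measurements are log2 signals of transcript clusters on Affymetrix mouse exon arrays, which the authors deposited for 23332 clusters on 15 arrays. Partek is the tool named in the submitters' processing notes. The sources used here give neither its version nor the background correction, normalization, summarization or genome build. Total RNA was turned into sense-strand cDNA, fragmented and labelled, per the labels' protocols. Scanner files were not used here.

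Clusters were named through the platform annotation, in which 14996 have 1 symbol, 1019 several and 7317 none. R 4.3.3 with limma 3.58.1 fitted all of them at once (lmFit, eBayes, 10 residual and 2.09 prior degrees of freedom), with 10 contrasts and an F-test. P-values are two-sided, the Benjamini-Hochberg adjustment runs over every cluster of a contrast, and calls are adjusted p under 0.05. With 3 arrays a group, the smallest p of an exact permutation test is 0.1, so calls rest on the pooled variance. The fit was tested on simulated data.

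The members, the 5 gene lists, the marker lists and the alternatives were chosen with earlier results of these data known. Genes named in the paragraphs on the lists were among the 4 with the smallest p of their list in some isoform. Their values in other isoforms are given too, also where they were not among the 4. Cat, named as the target that fell in PGC-1a4, is an exception to this rule. Likeness names the 5 highest and 3 lowest correlations. Where a gene had several clusters, that with the highest mean was used. Other settings tried were median centring, quantile normalization, a low-signal filter (percentile 25 or 50, on 3 arrays or more), only the groups compared, a variance trend, array weights, a replicate block, the interquartile range as a covariate, and leaving out each array.

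In the main fit, replicate numbers were not taken to pair the arrays. Deviations from the group means correlated above 0.1 in 11 of 30 comparisons of like-numbered arrays, between -0.22 and 0.36. Unlike-numbered arrays were not compared, so these values do not settle whether the numbers pair the arrays. The number of arrays limits the precision.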

Additional observations from a re-analysis of the deposited data

How the results depend on the processing

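Of the 17 comparisons in which a family member was called, 12 were called under all 24 alternatives. The others were the Ppargc1b differences of PGC-1a1 from GFP, PGC-1a3 and PGC-1a4, and the Pprc1 differences of PGC-1a2 and PGC-1a4 from GFP. The replicate block changed no call of a member, and with it Pprc1 differed from GFP by -0.47 in PGC-1a4. Of 66 calls of the listed genes with the smallest p in each list and isoform, it ended 2. Median centring ended 14 of them, leaving out GFP replicate 2 ended 7, and fitting only the groups compared ended 47. The other calls on the lists are not in this count.

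With median centring Ppargc1b differed by -0.19 between PGC-1a1 and GFP (adjusted p = 0.15) and by 0.21 between PGC-1a3 and PGC-1a1 (adjusted p = 0.068), and Pprc1 by 0.41 between PGC-1a2 and GFP (adjusted p = 0.062). With only the groups compared, values kept but not called were -0.26 (Ppargc1b, PGC-1a1 against GFP, adjusted p = 0.19), 0.25 and 0.29 (Ppargc1b, PGC-1a3 and PGC-1a4 against PGC-1a1), and 0.39 and -0.47 (Pprc1, PGC-1a2 and PGC-1a4 against GFP). Newly called were Pprc1 in PGC-1a1 against GFP with array weights (-0.36) and the interquartile-range covariate (-0.35). A filter at percentile 50 called Ppargc1b in PGC-1a2 against GFP (0.14) and in PGC-1a3 against PGC-1a2 (-0.15), and array weights called the latter too (-0.16). Uncalled values turned sign: Ppargc1b in PGC-1a3 against GFP to 0.024 with median centring, and to 0.015 and 0.008 without GFP replicate 1 or PGC-1a3 replicate 2, and Ppargc1a in PGC-1a3 against PGC-1a2 to -0.048 with the covariate and -0.033 without PGC-1a3 replicate 1. The cause was not tested.

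Over all clusters, 1596 were called in PGC-1a1, 2177 in PGC-1a2, 1865 in PGC-1a3 and 3331 in PGC-1a4 against GFP. With only the groups compared these were 393, 173, 36 and 1014, and with array weights 2994, 3492 and 3072 in the first 3. The covariate gave 2430 in PGC-1a1 and 3350 in PGC-1a2, and median centring 1354 in PGC-1a2 and 1127 in PGC-1a3. Median centring also moved the share of higher calls from 64.9% to 83.8% in PGC-1a1 and from 49.4% to 60.7% in PGC-1a4 against GFP, from 46.8% to 35.5% in PGC-1a2 and from 53.8% to 37.5% in PGC-1a3 against PGC-1a1.

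Leaving out each array in turn gave 951 to 1609 calls in PGC-1a1, 1231 to 2166 in PGC-1a2, 865 to 1775 in PGC-1a3 and 2474 to 3386 in PGC-1a4. For Ppargc1a it gave 0.145 to 0.526 in PGC-1a2 and 0.213 to 0.594 in PGC-1a3 against GFP, and -0.033 to 0.138 between them. For Ppargc1b it gave -0.294 to -0.229 in PGC-1a1 and -0.019 to 0.015 in PGC-1a3 against GFP, and 0.224 to 0.289 in PGC-1a3 against PGC-1a1. For Pprc1 it gave -0.349 to -0.193 in PGC-1a1 and 0.286 to 0.443 in PGC-1a2. Calls on the lists were recounted in the same way, a choice made after seeing the data. In PGC-1a1, PGC-1a2, PGC-1a3 and PGC-1a4 they ranged from 1 to 4, 4 to 6, 1 to 7 and 4 to 6 for upstream regulators, 1 to 3, 4 to 7, 1 to 6 and 6 to 9 for docking factors, 0 to 2, 2 to 4, 2 to 3 and 3 to 7 for the recruited machinery, 1 to 2, 3 to 4, 0 to 4 and 3 to 5 for repressors and modifiers, and 15 to 22, 7 to 11, 2 to 6 and 13 to 16 for targets.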
